A study of Mus musculus with 36 samples.

Results

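The 10 genes described here are transcriptional targets of p53 whose products promote or accompany cell death: Bax, Bbc3, Pmaip1, Fas, Tnfrsf10b, Eda2r, Pidd1, Perp, Phlda3 and Aen. They were listed by name, and their rows were taken from the 46603 genes of the deposited count tables. The tissue was the embryonic mouse forebrain of the strain C57Bl/6J, profiled by mRNA sequencing in 18 libraries, 3 for each of 6 groups. At E10.5, telencephalic vesicles of conditional knockout embryos (cKO, sox1-Cre; Chd8f/f) were compared with controls (Ctrl), which the labels give as a combination of Chd8f/f and Chd8 f/+, and RNA of 2 embryos was pooled in each library. The study's methods define Ctrl as Chd8flox/flox, apart from conditional heterozygotes (Sox1-Cre with Chd8flox/+). The Cre status of the Chd8 f/+ embryos named in the labels is not given, so whether some controls were conditional heterozygotes is unknown. At E12.5, neocortices of single Chd8+/+, Chd8+/-, Chd8neo/neo and Chd8neo/- embryos were sequenced, and the Chd8+/+ libraries served as the control of all other genotypes. CHD8 is a chromatin remodelling protein. The neo allele is hypomorphic because of a resistance cassette left in the gene, and the minus sign stands for a null allele. Sox1-Cre recombines in the early neural lineage, so that blood, vessel and mesenchymal cells in the cKO tissue are not its targets.

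p53, encoded by Trp53, is a transcription factor that is held at a low level by MDM2 and MDM4 and is released by DNA damage and other stress. It then switches on genes that stop the cell cycle and genes that kill the cell. Death by the mitochondrial route runs through BCL2 family proteins: BH3-only proteins such as PUMA (Bbc3) and NOXA (Pmaip1) unleash BAX, which opens the outer mitochondrial membrane. Death by the receptor route starts at Fas and the TRAIL receptor (Tnfrsf10b), which recruit caspases through an adaptor, and PIDD1 builds a further caspase-activating platform. In the developing forebrain, p53-dependent death of neural progenitors is a known cause of small brains.

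Promoter windows are shown for both members in which a p53 half-site was found, and for Eda2r and Phlda3, which had the largest rise and the smallest p of the members in the cKO. The windows are those of RefSeq on GRCm38.p6, run from 250 bases before to 50 bases after an annotated start, and were given for 7 of the 10 members. The exact consensus p53 half-site of 10 bases, which reads the same on both strands, was present in 3 of the 10 windows of these members, 1 of Bax and 2 overlapping ones of Aen, and in 8.36% of all 32851 windows. Capitals mark the half-site. In Bax (chr7:45466849-45467148, minus strand) it began 201 bases before the start:
Bax: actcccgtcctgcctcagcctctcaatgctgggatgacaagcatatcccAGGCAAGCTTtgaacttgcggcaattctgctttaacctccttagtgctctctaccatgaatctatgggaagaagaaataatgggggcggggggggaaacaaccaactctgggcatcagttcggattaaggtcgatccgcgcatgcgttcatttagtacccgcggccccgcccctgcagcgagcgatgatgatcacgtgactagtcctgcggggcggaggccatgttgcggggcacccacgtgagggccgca
In Aen (chr7:78895677-78895976, plus strand) it began 10 bases after the start:
Aen: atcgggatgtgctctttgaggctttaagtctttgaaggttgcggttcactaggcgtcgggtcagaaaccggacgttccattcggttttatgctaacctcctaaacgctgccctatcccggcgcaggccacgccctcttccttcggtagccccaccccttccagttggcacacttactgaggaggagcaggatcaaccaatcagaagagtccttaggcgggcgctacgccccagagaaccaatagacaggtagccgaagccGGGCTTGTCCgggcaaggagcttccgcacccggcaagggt
The windows of Eda2r (chrX:97377160-97377459, minus strand) and Phlda3 (chr1:135765835-135766134, plus strand) held no exact half-site:
Eda2r: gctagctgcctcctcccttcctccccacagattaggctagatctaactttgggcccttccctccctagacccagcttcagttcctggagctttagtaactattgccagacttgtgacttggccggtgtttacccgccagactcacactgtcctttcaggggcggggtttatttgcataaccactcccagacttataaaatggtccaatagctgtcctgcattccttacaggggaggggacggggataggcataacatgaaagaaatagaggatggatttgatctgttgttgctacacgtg
Phlda3: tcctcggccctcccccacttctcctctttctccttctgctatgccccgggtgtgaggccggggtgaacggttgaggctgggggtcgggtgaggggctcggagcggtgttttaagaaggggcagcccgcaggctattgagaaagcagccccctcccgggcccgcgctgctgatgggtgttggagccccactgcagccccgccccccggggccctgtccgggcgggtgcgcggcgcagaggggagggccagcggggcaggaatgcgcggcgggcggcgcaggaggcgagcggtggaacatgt
A match of these letters is a description of the sequence, and binding was not measured.

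The libraries held from 49632937 to 68488879 counts at E10.5 and from 38774591 to 61051667 at E12.5. Levels are given as CPM, which corrects counts for sequencing depth (TMM), each stage scaled by itself. Chd8 itself fell in the cKO from 171 ± 12 to 121 ± 4.78 CPM (mean ± SD, n = 3), a log2 fold change of -0.50 (SE 0.065, adjusted p = 0.00109, edgeR). The count covers the whole gene, of which Cre removes an exon, and 824 exon bases of Chd8 are shared with an antisense gene, which counting without strand (stated for E12.5) cannot separate. At E12.5 Chd8 was 237 ± 2.41 CPM in Chd8+/+, 167 ± 3.04 in Chd8+/-, 209 ± 5.64 in Chd8neo/neo and 149 ± 8.38 in Chd8neo/-. It was thus higher in Chd8neo/neo than in Chd8+/- (log2 fold change 0.33, adjusted p = 0.00897, edgeR). The study reports the opposite order for CHD8 protein, and also for Chd8 transcripts measured by quantitative RT-PCR in younger embryos. It further reports aberrant splicing of neo transcripts into the cassette. A count over the whole gene does not separate such transcripts, so that it does not rank the loss of CHD8. Trp53 transcripts did not pass the test in the cKO, with a log2 fold change of 0.09 (95% confidence interval -0.07 to 0.25, adjusted p = 0.473). All 9 neural progenitor markers were above the floor of 3 counts in every group. No member shared exon bases with another annotated gene.

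All 9 members that were measured well above the limit of detection rose in cKO telencephalic vesicles, by between 1.25-fold (Bax) and 13.6-fold (Eda2r). Their median log2 fold change was 1.03, against a median of 0.00 over the 18435 genes tested. Fas is left out of these counts and described by its counts only, because it passed the filter on low counts only through the cKO libraries and so had to differ. A gene was called differentially expressed (DEG) when its adjusted p in edgeR's quasi-likelihood test was below 0.05, and 5.75% of all genes tested were called higher in the cKO. The 3 cKO libraries lay above all 3 Ctrl libraries for each of these 9 members, as they did for 15.7% of all genes tested. In bulk tissue, more cells carrying a transcript and more transcript per cell cannot be told apart.

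**Figure D1:**
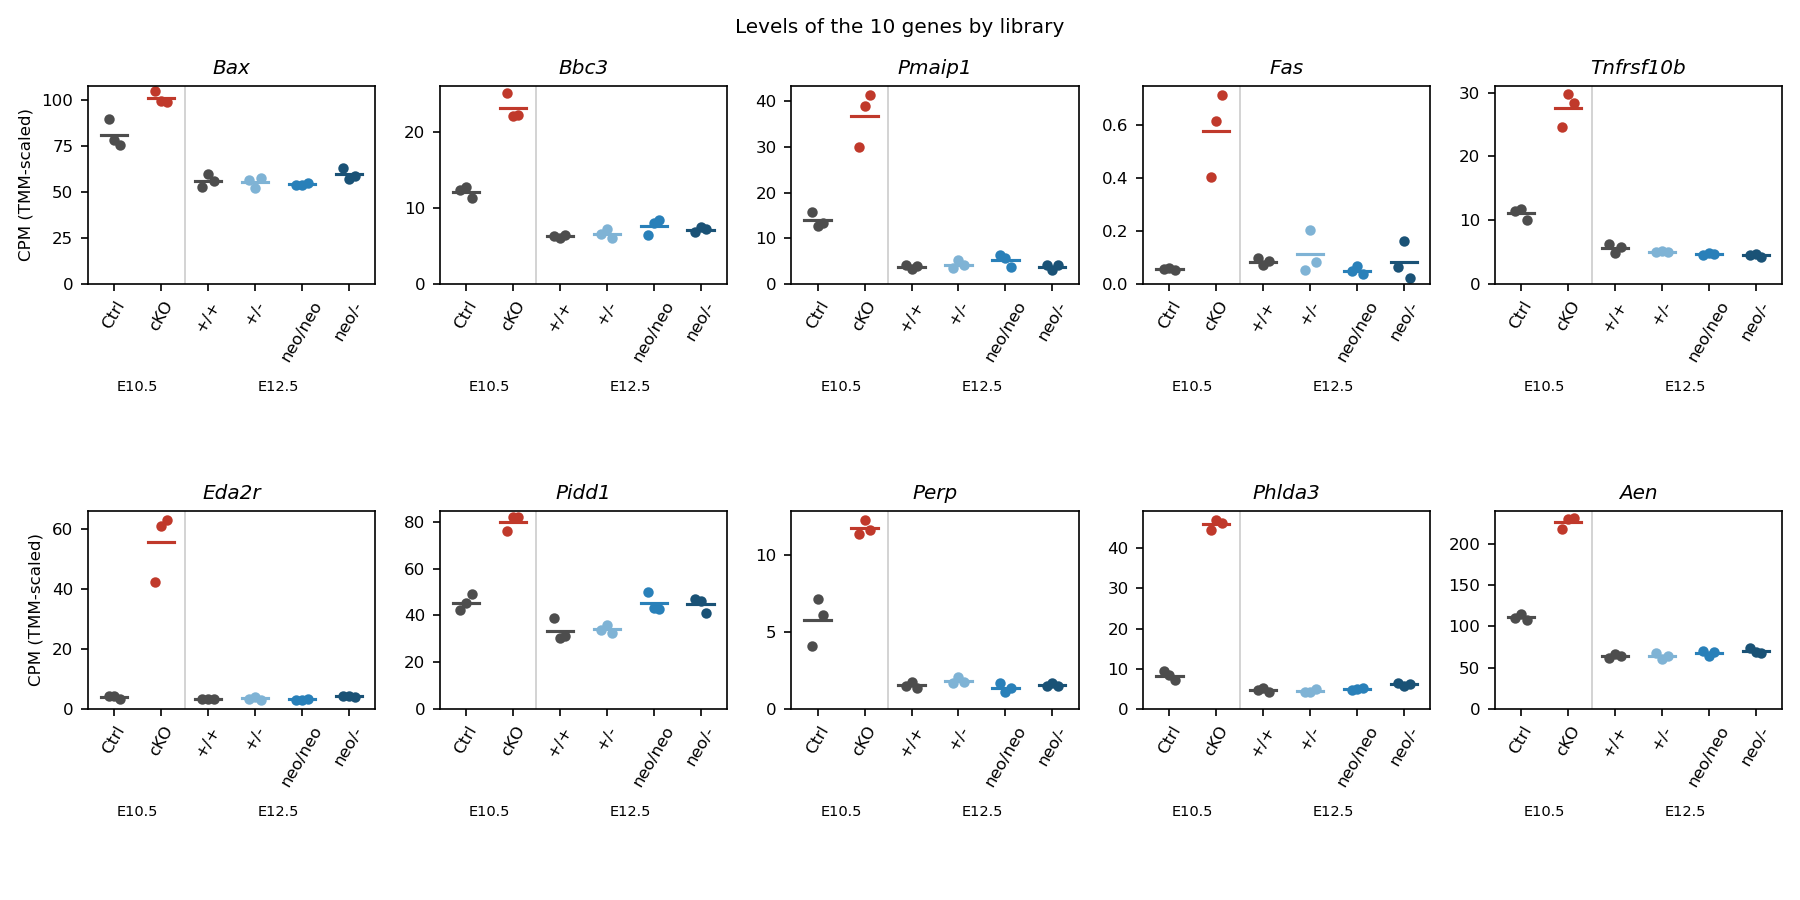
Levels of the 10 genes (y axis, TMM-scaled CPM from 0, a separate scale for each gene) in each library (points) of the 6 groups (x axis), with the mean of each group as a bar. In each panel the 3 cKO points lie above the 3 Ctrl points, while the E12.5 groups lie close to each other.

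Of the mitochondrial genes, Bax, the pore-forming effector, changed least. It was measured at 89.8, 78.1 and 75.7 CPM in the Ctrl libraries and at 105, 99.7 and 99.1 CPM in the cKO libraries. The groups did not overlap, and the rise was 0.32 on the log2 scale (SE 0.071, adjusted p = 0.0172). This call was lost without Ctrl replicate 3 (adjusted p = 0.0788), without cKO replicate 1 (0.0541) or without cKO replicate 2 (0.0681). Both BH3-only genes had larger fold changes than Bax. Bbc3 was at 12.3, 12.8 and 11.2 CPM in Ctrl and at 25, 22 and 22.1 CPM in the cKO, a log2 fold change of 0.93 (SE 0.089, adjusted p = 0.000199). Pmaip1 was at 15.7, 12.8 and 13.3 CPM in Ctrl and at 30.05, 39.0 and 41.4 CPM in the cKO, a log2 fold change of 1.40 (SE 0.13, adjusted p = 0.000231). For Pmaip1, cKO replicate 1 stood below the other two cKO libraries, yet well above the Ctrl libraries.

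Of the receptors, Eda2r had the largest change. Eda2r, an X-linked receptor of the TNF receptor family that binds an ectodysplasin form, was at 4.43, 4.46 and 3.38 CPM in Ctrl and at 42.4, 61.1 and 62.9 CPM in the cKO. Its log2 fold change of 3.76 (SE 0.19, adjusted p = 6.14e-05) was the second largest rise of all genes tested. Xist and Y-linked transcripts separated the libraries: Ctrl replicates 1 and 3 carried Xist and Ctrl replicate 2 carried Y-linked transcripts, while the cKO libraries carried both, from 708 to 1069 CPM of Xist and from 69.8 to 135 CPM of the Y-linked genes. With Y-linked expression as a covariate the log2 fold change of Eda2r was 3.64 (adjusted p = 0.00558).

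Tnfrsf10b, the mouse TRAIL death receptor, was at 11.5, 11.8 and 10.1 CPM in Ctrl and at 24.7, 29.8 and 28.4 CPM in the cKO (log2 fold change 1.31, SE 0.098, adjusted p = 3.18e-05). Fas was close to the limit of detection: each Ctrl library held 3 counts, and the cKO libraries held 24, 39 and 48. All 3 cKO libraries were above the Ctrl libraries, but Fas passed the filter only through the cKO libraries, so this separation carries no weight as a test. The ratio of summed, depth-scaled counts was 10.3 (95% exact interval 5.22 to 23.1). This interval covers counting error only and leaves out the spread between libraries. Pidd1, the death domain scaffold that recruits caspase-2 through CRADD, was at 42.3, 45.2 and 49.0 CPM in Ctrl and at 76.2, 82.1 and 82.2 CPM in the cKO. The groups were well apart, with a log2 fold change of 0.82 (SE 0.068, adjusted p = 7.57e-05).

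Among the remaining members, Phlda3, whose product occupies membrane lipids needed by the survival kinase AKT, had the smallest p of all 18435 genes. It was at 9.42, 8.40 and 7.12 CPM in Ctrl and at 44.5, 47.2 and 46.4 CPM in the cKO, a log2 fold change of 2.47 (SE 0.10, adjusted p = 6.28e-07). Aen, a nuclease that takes part in apoptosis, was at 110, 115 and 108 CPM in Ctrl and at 218, 231 and 231 CPM in the cKO. It rose by a log2 value of 1.03 (SE 0.057, adjusted p = 8.47e-06) and had little spread in either group. Perp, a membrane protein of desmosomes that is also abundant in surface epithelium, was at 4.11, 7.15 and 6.14 CPM in Ctrl and at 11.4, 12.3 and 11.6 CPM in the cKO. Its log2 fold change was 1.02 (SE 0.17, adjusted p = 0.00615), and the Ctrl libraries varied more than the cKO libraries. The summed level of 9 surface ectoderm markers ranged from 36.1 to 80.4 CPM in Ctrl and from 54.9 to 96.4 CPM in the cKO, so that it overlapped between the groups, and its part in the rise of Perp was not tested.

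Compared between genes per kilobase of exon, Bax was the most abundant member in Ctrl, at 93.5 ± 8.70 CPM per kilobase, followed by Aen at 19.6 ± 0.65 and Pidd1 at 10.1 ± 0.74 (mean ± SD, n = 3). Bbc3, Phlda3 and Pmaip1 came next at 6.03, 5.33 and 5.26 CPM per kilobase, with overlapping SDs, and Eda2r and Fas were the lowest at 0.695 and 0.0316. In the cKO the order of the first 2 was kept, at 117 ± 3.85 for Bax and 39.8 ± 1.33 for Aen, and Phlda3 followed at 29.5 ± 0.88. Eda2r reached 9.42 ± 1.92 CPM per kilobase, within the SD of Tnfrsf10b at 8.71 ± 0.84. Within the cKO group, replicate 1 was the lowest library for 8 of the 10 members. Without it 8 of the 9 members other than Fas were called, Bax being the one lost.

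Markers of other cell types differed between the E10.5 groups as well. The summed level of 8 mesenchymal markers was 818 to 904 CPM in Ctrl and 1016 to 1197 CPM in the cKO, that of 6 macrophage markers 20.4 to 23.9 and 25.1 to 27.8 CPM, and that of 6 endothelial markers 186 to 203 and 205 to 242 CPM. Of these, 3 of 8 mesenchymal, 1 of 6 macrophage and 1 of 6 endothelial markers were called higher. Of 9 neural progenitor markers 1, Sox1, was called lower, while the median log2 fold change of this list was 0.07. The cKO embryos carried Sox1-Cre, and its part in the value of Sox1 was not tested. Sums of neural progenitor, neuronal, erythroid and surface ectoderm markers overlapped between the groups. The part of these cells in the rise of the members was not tested.

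**Figure D2:**
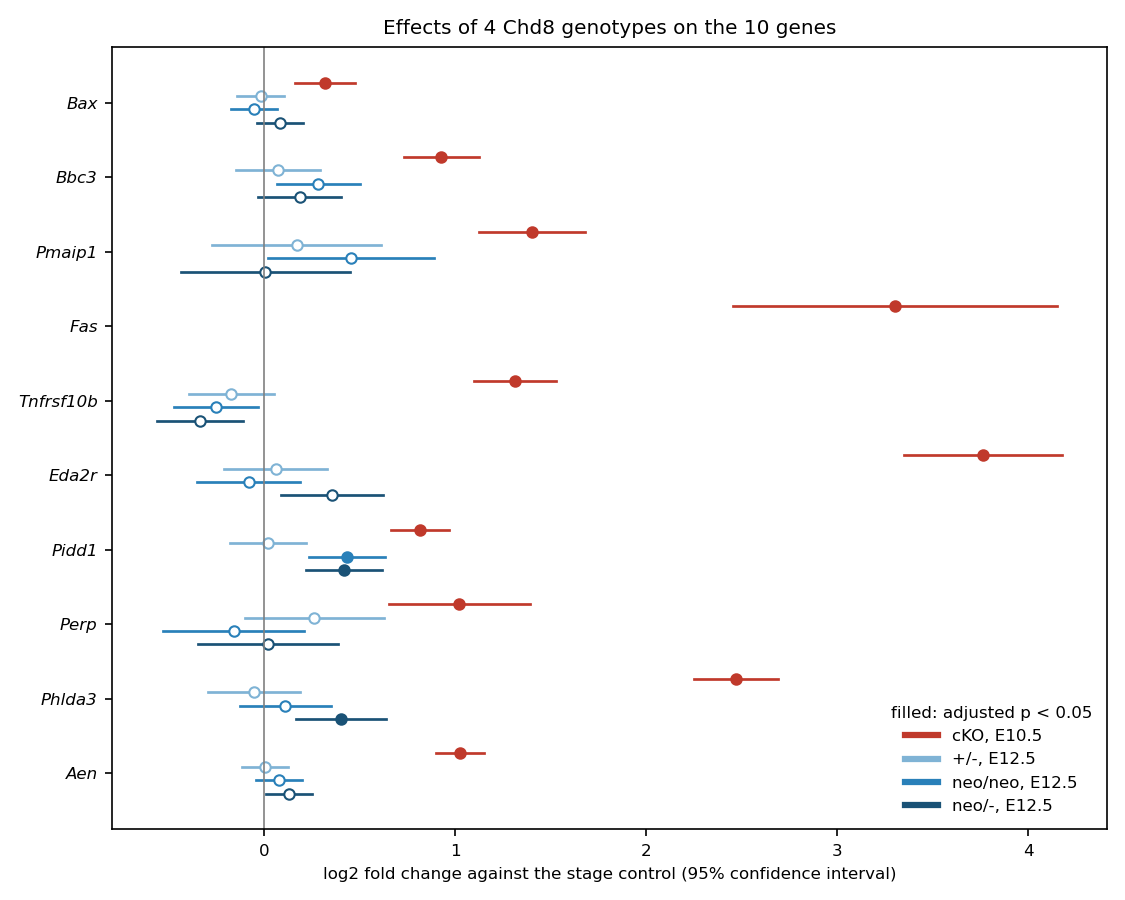
Log2 fold changes (x axis) of the 10 genes (y axis) in the cKO against Ctrl at E10.5 and in 3 genotypes against Chd8+/+ at E12.5, with 95% confidence intervals as lines. Filled points passed the test. All cKO points are filled and lie to the right of 0 (Fas entered the fit only through the cKO libraries), whereas at E12.5 only Pidd1 (in Chd8neo/neo and Chd8neo/-) and Phlda3 (in Chd8neo/-) are filled. Fas was not tested at E12.5.

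At E12.5 the same genes moved little. Fas held 1 to 9 counts per library and was not tested, which left 9 members. In Chd8+/- neocortices none of the 9 was called (edgeR), none had an unadjusted p below 0.05 and DESeq2 called 0; 0.0213% of all 18810 genes tested were called in either direction. No member of Chd8+/- was free of overlap with Chd8+/+, against 11.4% of all genes tested. The 95% confidence intervals bound what could be missed: the largest upper bound was 0.63 on the log2 scale (Perp), and those of Bax and Aen were 0.10 and 0.13.

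In Chd8neo/neo neocortices 1 of 9 members, Pidd1, was called, against a background of 8.16% of all genes tested, so that the count itself is near the background. Pidd1 was at 38.9, 30.5 and 31.3 CPM in Chd8+/+ and at 50.2, 43.2 and 42.9 CPM in Chd8neo/neo. All Chd8neo/neo libraries were higher than all Chd8+/+ libraries, with a log2 fold change of 0.43 (SE 0.092, adjusted p = 0.0153). This call was lost without Chd8+/+ replicate 2 (adjusted p = 0.0567), Chd8+/+ replicate 3 (0.0511) or Chd8neo/neo replicate 1 (0.0589), and in a fit of only these 2 groups (0.0533). Bbc3 was the other tested member without overlap, at 6.26, 6.09 and 6.40 CPM in Chd8+/+ and 6.47, 7.95 and 8.35 CPM in Chd8neo/neo (log2 fold change 0.28, SE 0.10, adjusted p = 0.0974), and 26% of all genes tested did not overlap. Pmaip1 was at 4.07, 3.23 and 3.98 CPM in Chd8+/+ and at 6.26, 5.64 and 3.62 CPM in Chd8neo/neo, so that replicate 3 lay within the Chd8+/+ range. Its log2 fold change was 0.45 (SE 0.20, adjusted p = 0.183), and it was called without Chd8neo/neo replicate 3 (0.65, adjusted p = 0.0235). Chd8neo/neo replicates 1 and 2 carried Xist, whereas its replicate 3 and Chd8+/+ replicates 1 and 2 carried Y-linked transcripts. Leaving out Chd8neo/neo replicate 3 therefore also changed the balance of sexes.

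Cell type markers differed in Chd8neo/neo too. The summed level of 7 neuronal markers was 2401 to 2881 CPM against 2903 to 3457 CPM in Chd8+/+, and that of 6 endothelial markers 212 to 233 against 237 to 241 CPM. Dcx and the endothelial gene Kdr were called lower, and of 9 neural progenitor markers Sox2 and Pax6 were called higher. The sums of the other lists overlapped. Their part in the values of Pidd1 was not tested.

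In Chd8neo/- neocortices, the most severe genotype at this stage, 2 of 9 members were called, Pidd1 and Phlda3, where 11.5% of all genes tested were called. Pidd1 was at 47.2, 46.4 and 41.2 CPM (log2 fold change 0.42, SE 0.092, adjusted p = 0.0122), a call that was lost without Chd8neo/- replicate 1 (0.0536) or replicate 2 (0.0515). Phlda3 was at 4.64, 5.14 and 4.15 CPM in Chd8+/+ and at 6.54, 5.73 and 6.16 CPM in Chd8neo/-. The groups did not overlap, and the log2 fold change was 0.40 (SE 0.11, adjusted p = 0.0300). Phlda3 lost its call without Chd8+/+ replicate 1 (0.0726), Chd8+/+ replicate 3 (0.113), or any 1 of Chd8neo/- replicates 1, 2 and 3 (0.117, 0.0523 and 0.0826). It also lost it from the first run alone (0.122) and with the replicate number as a block (0.0512).

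Of the 9 members tested, 6 did not overlap between Chd8neo/- and Chd8+/+, against 33.3% of all genes: Bbc3, Eda2r, Pidd1, Phlda3 and Aen lay higher and Tnfrsf10b lower. Eda2r was at 3.46, 3.37 and 3.15 CPM in Chd8+/+ and at 4.42, 4.30 and 4.06 CPM in Chd8neo/- (log2 fold change 0.36, SE 0.12, adjusted p = 0.0802), and it was called in a fit of only these groups (0.0424). All 3 Chd8neo/- libraries and Chd8+/+ replicates 1 and 2 carried Y-linked transcripts, whereas Chd8+/+ replicate 3, the lowest for Eda2r, carried Xist. Tnfrsf10b was at 6.32, 4.84 and 5.78 CPM in Chd8+/+ and at 4.50, 4.68 and 4.27 CPM in Chd8neo/-, so that all Chd8neo/- libraries were lower. Its log2 fold change was -0.33 (SE 0.10, adjusted p = 0.0516), and it was called under DESeq2 (0.0379), with RLE scaling (0.0499) and without Chd8+/+ replicate 2 (0.0195), Chd8+/- replicate 2 (0.0489) or Chd8neo/neo replicate 3 (0.0477). Bax, Pmaip1 and Perp had log2 fold changes of 0.08, 0.01 and 0.02, with confidence intervals reaching up to 0.21, 0.45 and 0.39.

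Erythroid markers were higher in Chd8neo/-, with a sum of 4304 to 6863 CPM over 6 markers against 2982 to 3666 CPM in Chd8+/+, and 3 of these 6 were called. Of 7 neuronal markers 1, Dcx, was called lower. The sums of all other marker lists overlapped between these 2 groups. The part of blood cells in the values of Pidd1 and Phlda3 was not tested.

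Against Chd8+/- instead of Chd8+/+, Pidd1 was again the 1 member called in Chd8neo/neo (log2 fold change 0.41, SE 0.093, adjusted p = 0.0293), with 5.28% of all genes called. Pidd1 (0.40, SE 0.093, adjusted p = 0.0280) and Phlda3 (0.46, SE 0.11, adjusted p = 0.0293) were called in Chd8neo/-, with 5.43% of all genes called. These comparisons share their mutant libraries with those against Chd8+/+. When single libraries were left out, Pidd1 lost its call in Chd8neo/neo without Chd8+/- replicates 1 or 3 or Chd8neo/neo replicates 1 or 2 (adjusted p from 0.0730 to 0.105). In Chd8neo/- it lost its call without Chd8+/- replicates 1 or 3 or Chd8neo/- replicates 1 or 2 (0.0902 to 0.111), and Phlda3 without Chd8+/- replicates 1 or 2 or any Chd8neo/- library (0.0692 to 0.122). Pidd1 in Chd8neo/neo was also lost with the Y-linked covariate (0.0557) and in a fit of only both groups (0.0544), and in Chd8neo/- with the covariate (0.0510) and from the second run (0.0570). Phlda3 was lost with the replicate block (0.0535) and from either run (0.0561 and 0.103). Of 6 endothelial markers 3 were called higher in Chd8neo/- than in Chd8+/-, with sums of 238 to 265 against 211 to 222 CPM, and their part was not tested. Chd8neo/- and Chd8neo/neo differed in none of the 9 members in edgeR or DESeq2, although 4 had an unadjusted p below 0.05; 0.0159% of all genes were called. The difference nearest to the threshold was that of Eda2r (0.44, SE 0.12, adjusted p = 0.479).

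A trend over the 4 genotypes, scored 0 to 3 in the order Chd8+/+, Chd8+/-, Chd8neo/neo and Chd8neo/-, passed the test for 3 of 9 members, against 15.7% of all genes tested. This is the order in which the study reports falling CHD8 protein. The fitted slope per step on the log2 scale was 0.17 for Pidd1 (SE 0.036, adjusted p = 0.00736) and 0.14 for Phlda3 (SE 0.038, adjusted p = 0.0213). It was -0.11 for Tnfrsf10b (SE 0.032, adjusted p = 0.0301). The steps of Pidd1 were not even, with means of 33.6, 34.1, 45.4 and 44.9 CPM in this order of genotypes. Its slope thus mostly records the step between Chd8+/- and Chd8neo/neo. The order of Phlda3 was not even, since it was at 4.14, 4.21 and 5.03 CPM in Chd8+/- and at 4.75, 4.99 and 5.29 CPM in Chd8neo/neo. The trend of Phlda3 was lost without Chd8+/+ replicate 3 or any Chd8neo/- library (adjusted p from 0.0532 to 0.0842), and that of Tnfrsf10b without Chd8+/+ replicates 1 or 3 or Chd8neo/- replicates 1 or 3 (0.0545 to 0.0910). With the CHD8 protein share as the score the trend of Phlda3 was lost (0.0803), both were lost from either run alone (0.0534 to 0.231), and that of Tnfrsf10b without the filter on low counts (0.0501). That of Pidd1 passed under all 21 alternatives tried.

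The difference between the 2 effects was tested directly, as the cKO effect at E10.5 minus the Chd8neo/- effect at E12.5, in 1 fit of all 18 libraries. It was called, with the larger rise in the cKO, for 7 of the 9 members other than Fas, and 3.9% of all genes tested were called in that direction. Fas, which entered this fit only through the cKO libraries, is not counted. The difference was largest for Eda2r, at 3.41 on the log2 scale (SE 0.21, adjusted p = 2.99e-08). It was 2.06 for Phlda3 (SE 0.15, adjusted p = 7.29e-08) and 1.65 for Tnfrsf10b (SE 0.14, adjusted p = 5.20e-07), whose estimates had opposite signs at both stages. Pidd1, which was called in both arms, had a difference of 0.40 (95% confidence interval 0.14 to 0.65, adjusted p = 0.0555), and Bax one of 0.23 (0.04 to 0.43, adjusted p = 0.144). The difference of Pidd1 was called under 8 of 26 alternatives, among them DESeq2 (0.0128), and that of Bax without Ctrl replicate 1 (0.0323). The difference of Perp was lost from the first run alone (0.0884) and without cKO replicate 2 or Chd8neo/- replicates 1 and 3. Allele, stage, tissue dissected, pooling of embryos and sequencing runs all changed between these arms and cannot be told apart.

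**Figure D3:**
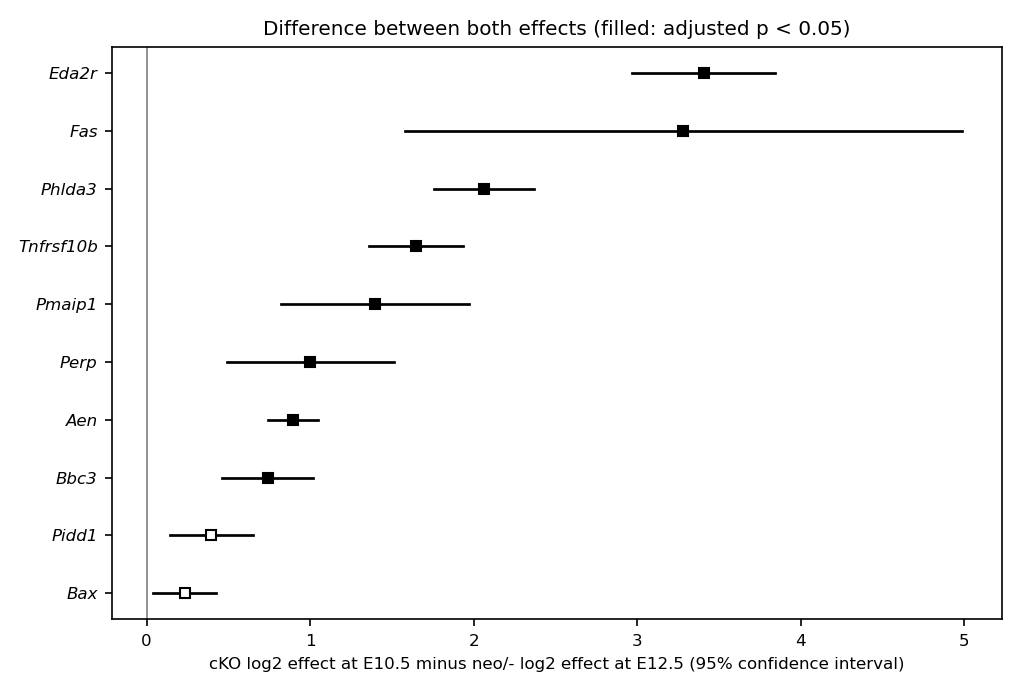
Difference between both effects: log2 effect of the cKO at E10.5 minus that of Chd8neo/- at E12.5 (x axis) for each gene (y axis), with 95% confidence intervals. Filled squares passed the test, from 0.74 in Bbc3 to 3.41 in Eda2r. Bax and Pidd1 are open, and Fas entered the fit only through the cKO libraries.

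Averaged over the 9 members tested at both stages, the log2 level relative to the mean of the stage control was 1.36, 1.5 and 1.5 in the cKO libraries, a description that carries no test. It was 0.19, 0.13 and 0.12 in the Chd8neo/- libraries and 0.13, 0.06 and 0.07 in the Chd8neo/neo libraries. The Chd8+/- libraries were at -0.01, 0.12 and 0.01 and the Chd8+/+ libraries at 0.04, -0.01 and -0.03, so that Chd8+/- replicate 2 lay above all Chd8+/+ libraries and among those of the hypomorphs.

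The genes whose levels followed this average most closely over the 18 libraries, out of 17694 genes compared, were Ccng1, Zmat3, Ano3, Zfp365 and Gm37795, with Pearson's r from 0.983 to 0.991. The points share their libraries, and the 3 cKO libraries stand apart from all others, so that r mostly records that step. Ccng1, a cyclin-like p53 target, was at 62.5 CPM in Ctrl, 382 CPM in the cKO, 52.7 CPM in Chd8+/+ and 62.6 CPM in Chd8neo/-. Zmat3, an RNA-binding p53 target, was at 80.7, 224, 84.0 and 83.5 CPM in the same groups. Gm37795, a predicted gene, went from 2.63 to 27.2 CPM between Ctrl and cKO.

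**Figure D4:**
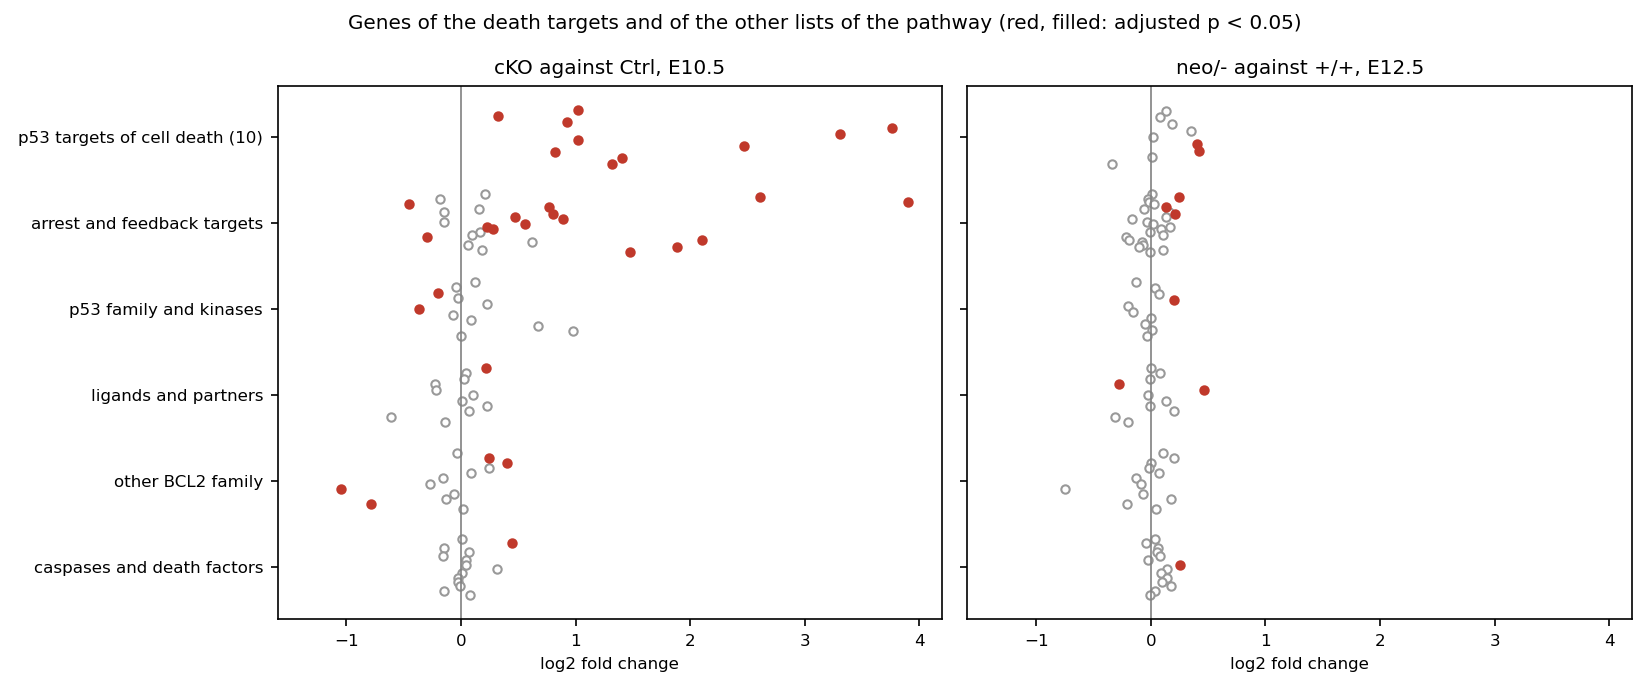
Log2 fold changes (x axis) of the 10 death targets and of 5 other lists of the pathway (rows, 1 point a gene) in the cKO at E10.5 (left) and in Chd8neo/- at E12.5 (right). Filled red points passed the test: 14 of 24 arrest and feedback targets in the cKO, 12 of them higher, against 3 of 24 in Chd8neo/-.

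In the wider pathway, many p53 targets of arrest and feedback also changed in the cKO. Of 24 genes, 12 rose and 2 fell, where 11.4% of all genes tested were called in either direction, and their median log2 fold change was 0.25. Those with the smallest adjusted p were Sesn2 (20.3 ± 1.71 to 87.2 ± 12.2 CPM, adjusted p = 8.47e-06), a stress-induced inhibitor of mTOR signalling, Zmat3 (80.7 ± 7.11 to 224 ± 23.2, 1.46e-05), Gtse1 (93.3 ± 3.17 to 163 ± 0.39, 2.10e-05), which restrains p53 in the later cell cycle, and Trp53inp1 (35.5 ± 3.19 to 131 ± 22.2, 0.000218), a p53 cofactor.

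Of 11 genes of the p53 family and its upstream kinases, 2 were called and both fell: Mdm4 (250 ± 8.05 to 195 ± 13.5 CPM, adjusted p = 0.00589), an inhibitor of p53, and the checkpoint kinase Chek1 (108 ± 1.91 to 94.4 ± 1.67 CPM, adjusted p = 0.0350). Of 11 tested ligands and partners of the members, 1 rose, the kinase Akt1 (233 ± 8.71 to 271 ± 5.22 CPM, adjusted p = 0.0278). Of 12 tested BCL2 family genes outside the members, the effector Bak1 (53.2 ± 1.54 to 63.0 ± 2.61 CPM, adjusted p = 0.0240) and the survival gene Bcl2 (15.2 ± 1.34 to 20.1 ± 2.97 CPM, adjusted p = 0.0449) rose. The BH3-only genes Hrk (0.94 to 0.55 CPM, adjusted p = 0.0362) and Bik (0.81 to 0.39 CPM, adjusted p = 0.0402) fell, at low levels. Of 14 caspases and mitochondrial death factors, 1 rose, Apaf1 (72.1 ± 3.49 to 98.0 ± 6.15 CPM, adjusted p = 0.00247), the core of the apoptosome. Of all genes tested 11.4% were called in either direction, so that the counts of these lists, other than the BCL2 family, are near the background. The medians of these 4 lists lay between -0.05 and 0.02 on the log2 scale.

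In Chd8neo/- neocortices 3 of the 24 arrest and feedback targets were called, all higher: Gtse1 (63.6 ± 4.38 to 73.7 ± 2.51 CPM, adjusted p = 0.0271), Ei24 (125 ± 1.95 to 137 ± 4.87 CPM, adjusted p = 0.0302) and Ccng1 (52.7 ± 2.23 to 62.6 ± 3.42 CPM, adjusted p = 0.0414). This share is close to the 11.5% of all genes called in this comparison. Of 11 tested ligands and partners of the members, 1 was called higher and 1 lower, against the same 11.5% of all genes. Cradd, which links PIDD1 to caspase-2, rose from 8.08 ± 0.58 to 11.1 ± 0.47 CPM (log2 fold change 0.46, SE 0.080, adjusted p = 0.00258). It was also called in Chd8neo/neo (10.3 ± 0.50 CPM, adjusted p = 0.0186), whereas in the cKO it was at 6.55 ± 0.26 CPM against 7.63 ± 0.82 CPM in Ctrl (adjusted p = 0.213). The cKO effect on Cradd differed from that of Chd8neo/- (-0.69, SE 0.13, adjusted p = 0.00392). Cflar, an inhibitor of caspase-8 at death receptors, fell from 27.4 ± 1.72 to 22.6 ± 0.53 CPM (adjusted p = 0.00801). Of 14 caspases and mitochondrial death factors 1 was called, the executioner caspase Casp6, which rose from 21.5 ± 0.33 to 25.6 ± 0.71 CPM (adjusted p = 0.00603). Of 10 tested genes of the p53 family and its upstream kinases 1 was called, the checkpoint kinase Chek2, which rose from 24.7 ± 0.82 to 28.4 ± 0.69 CPM (adjusted p = 0.0496). Neither count stands above the 11.5% of all genes called. Of the 12 BCL2 family genes tested outside the members, edgeR called 0, with 3 at an unadjusted p below 0.05, and DESeq2 called 1 higher.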

How the data were processed

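Per the labels, the file headers and the study's methods, the authors extracted RNA with Trizol, made strand-marked mRNA libraries, and deposited raw counts per gene and run. The E12.5 header shows counting without a strand option, and that of E10.5 was not given in the sources used here. The submitters' processing notes name Trim Galore 0.4.1, TopHat2 2.1.0, featureCounts 1.5.0 and the build GRCm38.p4. The counts of 2 runs were summed per library. Fits used edgeR 4.0.16 in R 4.3.3 (filterByExpr, TMM, robust quasi-likelihood test, Benjamini-Hochberg adjustment over all genes, threshold 0.05), the stages apart and, for the difference between them, together. SE is the absolute log2 fold change over the root of F. Some of the fits were also run on simulated counts, but no outcome is given here, so that this says nothing about their accuracy. Of 46603 genes 46005 matched a symbol. Members, lists and markers were chosen with earlier results of these data known. The text names the members, Chd8, Trp53, up to 4 called genes per list and comparison, the 5 genes most like the members, and markers. Alternatives were DESeq2 1.42.0, RLE and upper quartile scaling, no filter, a replicate block, Y-linked expression as a covariate, single runs, only the 2 groups compared, another trend score and each library left out. Same-numbered Chd8neo/neo and Chd8+/- libraries were weakly correlated (0.12, 0.14 and 0.20), and the main fits did not pair them. Replicate 3 of Chd8neo/neo and of Chd8+/+ had a correlation of -0.30, so that values of this size do not show a link. No source names a link between libraries of the same number. The study's methods state that replicates came from different litters. Figures were drawn with matplotlib from the results.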

Additional observations from a re-analysis of the deposited data

Results flagged for a closer look

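For 7 of the 9 members other than Fas a direct test found that the cKO effect at E10.5 differed from the Chd8neo/- effect at E12.5. The differences in log2 fold change were 0.74 for Bbc3, 1.40 for Pmaip1, 1.65 for Tnfrsf10b, 3.41 for Eda2r, 1.00 for Perp, 2.06 for Phlda3 and 0.89 for Aen, all with the larger rise in the cKO. Adjusted p (edgeR) ranged from 2.99e-08 for Eda2r to 0.0193 for Perp. Fas met the same criterion (difference 3.28, adjusted p = 0.0218), but it entered the fit only through the cKO libraries, so that its test carries no weight. The cause of the difference was not tested, since stage, allele, tissue dissected, pooling of embryos and sequencing runs changed together. Groups of 3 libraries are too small for a test of single outlying libraries.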

How the results depend on the processing

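No member value that passed the test in either fit changed sign under any alternative run. With Fas included, 10 members were called in the cKO and 9 to 10 without single libraries, Bax being the one lost; DESeq2 and the first run alone called all 9 others and gave no test of Fas. For the difference between cKO and Chd8neo/- effects, 8 were called with Fas, 6 to 9 without single libraries, 6 from the first run and 7 from the second. Over the 9 members other than Fas these counts were 8 to 9 and 6 to 8 over all alternatives. Counts at E12.5 were less stable. In Chd8neo/neo against Chd8+/+ 1 was called, 0 in a fit of only the 2 groups compared, and 0 to 2 without single libraries. In Chd8neo/- against Chd8+/+ 2 were called, 1 with the replicate block, 1 from the first run alone, and 0 to 3 without single libraries. In Chd8neo/neo against Chd8+/- 1 was called, 0 with Y-linked expression as a covariate, 0 with only the 2 groups, and 0 to 1 without single libraries. In Chd8neo/- against Chd8+/- 2 were called, 1 with the replicate block, 1 with the covariate, 1 from the first run and 0 from the second, and 0 to 2 without single libraries. The trend called 3, 1 from either run alone, and 1 to 3 without single libraries. The cause of these losses was not tested; single runs and fewer libraries hold fewer counts or samples. The replicate block left 10 members called in the cKO, 0 in Chd8+/- and 1 in Chd8neo/neo against either control. It left 0 in Chd8neo/- against Chd8neo/neo, 3 in the trend and 9 in the difference. Libraries of a block share a number, and no source names a further link. Over all genes tested, calls in the cKO numbered 2110, 918 with the Y-linked covariate and 538 without cKO replicate 2. Those in Chd8neo/neo numbered 1534 against Chd8+/+, 430 with only the 2 groups and 2605 without Chd8neo/neo replicate 3, and 994 against Chd8+/-, 1827 with DESeq2, 572 with the replicate block and 23 without Chd8neo/neo replicate 2. Those in Chd8neo/- numbered 2158 against Chd8+/+ and 1015 without its replicate 2, and 1021 against Chd8+/-, 1712 with DESeq2 and 244 without its replicate 1. The trend called 2946, and 1818 with the CHD8 protein share as the score. At 1 to 9 counts per library, Fas did not pass the filter at E12.5.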
